A study of Mus musculus with 82 samples.

Results

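High-output and low-output cells are the cells at either end of the range of nascent RNA reads within each scGRO–seq library of V6.5 mouse ES cells, a line derived from the inner cell mass of an embryo of a cross between C57BL/6 and 129/sv mice. Nuclei run on with 3′-propargyl nucleotides were sorted one to a well, and the nascent RNA of each well was joined by click chemistry to a DNA oligonucleotide with a cell barcode, so that 1 barcode of a library stands for 1 cell. All cells were grown with serum and leukaemia inhibitory factor, none was treated, and high and low output are therefore not conditions of the experiment. Barcodes with at least 1000 reads were kept in libraries with at least 24 of them from batches Exp156, Exp160, Exp208, Exp211, Exp236, Exp246, Exp260, Exp260b, Exp263 and Exp264a. This gave 3647 cells in 42 of the 53 libraries of the 10 batches. In each library the top and bottom 25% of cells by total reads were taken, which gave 902 high-output cells, 902 low-output cells and 1843 cells between them. Counted over all lists of the whole series, there are 7682 pairs of a library and a barcode with reads.

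A run-on adds a labelled nucleotide to the 3′ end of RNA that a polymerase is making, so the last base of a read marks where a polymerase stood. Polymerase II often pauses just after the start of a gene, runs through introns that make up most of a long gene, and goes on past the annotated gene end before it stops. Per the paper, the low detergent that keeps nuclei intact limits run-on by paused polymerases. Promoter-proximal reads of these cells are thus not a full count of them. Most snoRNAs of mouse, which guide the modification of ribosomal RNA, lie in introns of host genes, and many of these hosts encode ribosomal proteins and other parts of the translation machinery. Composition here is the share of the reads of a cell that fell in such classes.

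Total reads chose the cells and are given as a description. Reads per high-output cell ranged from 1320 to 51431 with a median of 4237, and reads per low-output cell from 1000 to 7123 with a median of 1736.5. The ratio of the median high-output cell to the median low-output cell of the same library lay between 1.41 and 5.94, with a median of 2.24. High-output cells held 40.4% and low-output cells 14.3% of the 13586100 reads. The groups meet without a gap. The lowest high-output cell of a library had a median of 3258 reads and the next cell below it 3251, and the highest low-output cell had 1984 reads and the next cell above it 2001.5.

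**Figure D1:**
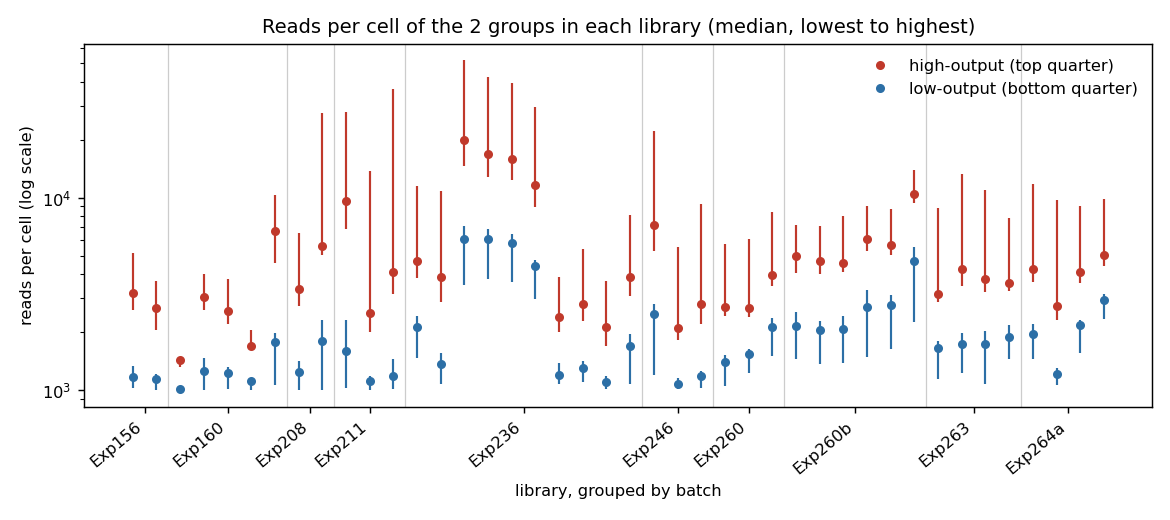
Reads per cell (vertical axis, log scale) of high-output and low-output cells in each of the 42 libraries, grouped by batch on the horizontal axis. Points are medians over cells and lines run from the lowest to the highest cell of the group, and the medians of the 3 deepest low-output groups, all in Exp236, lie above those of the high-output groups of many other libraries.

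Output went with the barcode. The libraries share 3 sets of cell barcodes, numbered 1 to 3, and 276 of the 283 barcodes were found in 2 or more libraries. Set 1, of 93 barcodes with 12 bases, served 8 libraries of 3 batches, set 2, of 94 barcodes with 10 bases, served 4 libraries of 2 batches, and set 3, of 96 barcodes with 10 bases, served 30 libraries of 6 batches. After the mean of each library was taken off the log2 reads, the barcode accounted for 69.9% of the variance between cells (70.3%, 78.3% and 66.8% within the 3 sets). Across the barcodes that a pair of libraries shared, the correlation of reads had a median of 0.899 for 91 pairs from the same batch and 0.697 for 377 pairs from different batches, where it ranged from -0.00748 to 0.984. These correlations are over barcodes, which recur in every pair, and carry no test. Of 268 barcodes found in 3 or more libraries, 11 were high-output in every library, 15 were low-output in every library and 49 were high-output in one and low-output in another.

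A few barcodes are printed because they were at the same end of the range in every library that kept them with at least 1000 reads. The low-output barcodes of set 3 were kept in fewer than its 30 libraries, so that their values leave out any cells under that minimum. The sequences are 5′ to 3′, with no base singled out by capitals.
Set 3, high-output in 30 of 30 libraries: ttcttcttcc
Set 3, high-output in 30 of 30 libraries: accatagacc
Set 3, low-output in 21 of 21 libraries: caatcggcga
Set 3, low-output in 26 of 26 libraries: aacgctcgta
Set 3, low-output in 25 of 25 libraries: cagcggttga
Set 1, high-output in 8 of 8 libraries: ctttgaagtcct
Set 2, high-output in 4 of 4 libraries: ctcatacccc
Relative to the mean of their libraries, ttcttcttcc had 3.13 times the reads, accatagacc 1.70 times and ctttgaagtcct 2.02 times, whereas caatcggcga had 0.510, aacgctcgta 0.602 and cagcggttga 0.629 times. The largest ratio among these was that of ctcatacccc, with 8.74 times. The barcodes of high-output cells were in the top 25% for 52.8% of their cells in other batches and in the bottom 25% for 5.02%. Those of low-output cells were in the bottom 25% for 56.7% and in the top 25% for 5.40%. Each well received its own barcode, so that the oligonucleotide and the well cannot be told apart, and the place of each barcode on the plate is not given in the sources used here.

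**Figure D2:**
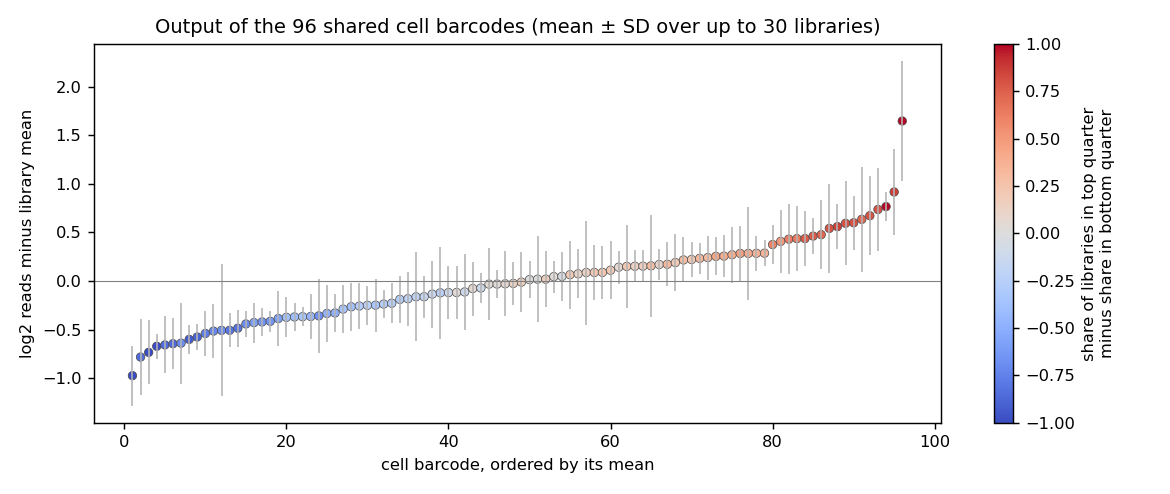
Output of each of the 96 barcodes of set 3, as log2 reads minus the mean of the library (vertical axis; mean ± SD over up to 30 libraries), with barcodes ordered by their mean on the horizontal axis. The colour gives how often a barcode was in the top rather than the bottom 25% of cells, and the barcode at the far right was in the top 25% in 30 of 30 libraries.

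Shares of reads were tested on reads that did not choose the cells. Cells were ranked within a library by their reads on the odd-numbered autosomes and measured on the remaining chromosomes, and the other way round. Of high-output cells, 95.7% and 95.6% were also in the top 25% by one set of chromosomes or the other, as were 95.9% and 94.8% of low-output cells in the bottom 25%, and none crossed to the opposite end. A value per batch is the mean over cells. Batches of the same barcode set share barcodes, so that they are not fully independent. The test was a two-sided exact sign-flip test over the 10 batches, whose smallest p is 0.00195, with Benjamini-Hochberg adjustment over 11 measures. Since ranking by the barcode alone also separated output, results are given also for cells ranked by their barcode in other batches and for cells ranked after division by that barcode mean, both chosen after the data were seen.

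In high-output cells the shares of antisense reads and of reads in long genes were larger, and the shares of reads near promoters, in exons and on the mitochondrial genome were smaller. Shares of intron reads and of intergenic reads, which are outside every gene on both strands, did not pass the test. The changes were small beside the spread between batches.

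Antisense reads, which lie within a gene only on its opposite strand, made up between 11.8% and 23.002% of the reads of high-output cells by batch, with a median of 17.9%, and between 10.03% and 19.97% of those of low-output cells, with a median of 16.6%. The ranges overlapped, and within batches the share was higher in high-output cells in 10 of 10. The mean was 17.996% ± 3.87 against 16.6% ± 3.34 (SD, n = 10 batches), a difference of 1.44 ± 1.75 percentage points (adjusted p = 0.00716, exact sign-flip test). Exp236 had the largest difference, from 16.9% to 22.3%, and Exp246 the next, from 19.6% to 23.002%. In Exp160 the values were 19.98% and 19.97%. Over the 4 ranges of 25% of cells from lowest to highest output, the share was 16.5%, 16.8%, 17.2% and 17.9%. Ranked by the barcode alone, the difference was 0.911 points and higher in 7 of 10 batches (adjusted p = 0.0788, exact sign-flip test), and after division by the barcode mean it was 1.12 points and higher in 9 of 10 (adjusted p = 0.283, exact sign-flip test).

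Genes longer than 100 kb took between 34.9% and 44.97% of the gene reads of high-output cells, with a median of 40.1%, and between 33.01% and 42.8% of those of low-output cells, with a median of 38.5%. Here gene reads are those on the strand of a gene, in its exons or introns. The share was higher in high-output cells in 10 of 10 batches, by 1.68 ± 1.51 points (SD, n = 10; adjusted p = 0.00716, exact sign-flip test). In Exp236 it was 35.4% in low-output and 40.2% in high-output cells, and in Exp156 it was 34.83% and 34.86%. It followed output through all cells, with 38.1%, 38.6%, 39.2% and 39.9% from the lowest to the highest 25%. The barcode alone gave a difference of 1.60 points (7 of 10 batches higher, adjusted p = 0.0430, exact sign-flip test), and after division by the barcode mean it was 0.684 points (6 of 10 higher, adjusted p = 0.349, exact sign-flip test). Among cells with at least 2000 reads it was 1.43 points (8 of 10 higher, adjusted p = 0.0698, exact sign-flip test).

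Promoter-proximal reads, within 500 bp after a gene start on its strand in genes over 2 kb, showed the opposite order. They made up between 1.71% and 3.79% of gene reads in high-output cells, with a median of 2.47%, and between 1.84% and 4.86% in low-output cells, with a median of 2.85%. The share was lower in high-output cells in 10 of 10 batches, by 0.481 points (SD 0.394, adjusted p = 0.00716, exact sign-flip test). The step was widest in Exp264a, with 4.86% in low-output and 3.79% in high-output cells, and under 0.01 points in Exp160. From the lowest to the highest 25% of cells the share was 2.99%, 2.72%, 2.56% and 2.49%. With the barcode alone the difference was -0.638 points (adjusted p = 0.0286, exact sign-flip test), and after division by the barcode mean it was 0.0812 points, of opposite sign (adjusted p = 0.875, exact sign-flip test). Among cells with at least 2000 reads it was -0.236 points (7 of 10 batches lower, adjusted p = 0.233, exact sign-flip test).

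Exon reads made up 7.44% ± 2.66 of the reads of high-output cells and 7.82% ± 2.60 of those of low-output cells (SD, n = 10), and the share fell in 9 of 10 batches with a mean of -0.381 points (adjusted p = 0.0107, exact sign-flip test). It ranged from 4.64% to 12.96% in high-output and from 5.51% to 13.2% in low-output cells, so that the batch set the level far more than the output of the cell did. By the barcode alone the difference was -0.237 points (adjusted p = 0.207, exact sign-flip test), and after division by the barcode mean it was -0.387 points (adjusted p = 0.0752, exact sign-flip test). With molecules listed in more than 1 library counted it was 0.651 points (adjusted p = 0.115, exact sign-flip test), and among cells with at least 2000 reads it was -0.150 points (adjusted p = 0.580, exact sign-flip test).

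Intron reads made up between 28.2% and 48.7% of reads in high-output cells and between 29.2% and 48.1% in low-output cells, with means of 35.9% and 35.7%. The difference of 0.177 points did not pass the test (7 of 10 batches higher, adjusted p = 0.696, exact sign-flip test). The barcode alone gave 1.47 points (9 of 10 higher, adjusted p = 0.0286, exact sign-flip test), and division by the barcode mean gave -1.68 points (9 of 10 lower, adjusted p = 0.0537, exact sign-flip test). The sign of the intron difference thus depended on what ranked the cells. Intergenic reads differed by 0.00117 points, at 32.4% in both groups, with between 14.4% and 43.8% in high-output cells by batch (adjusted p = 0.996, exact sign-flip test), and were -0.853 points by the barcode alone (adjusted p = 0.140, exact sign-flip test) and 1.26 points after division by the barcode mean (adjusted p = 0.0752, exact sign-flip test). Of the intergenic reads, 10.6% in high-output and 10.2% in low-output cells lay within 10 kb after a gene end on the strand of the gene (adjusted p = 0.196, exact sign-flip test).

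Mitochondrial reads were rare and ranged from 0.0792% to 0.937% by batch in high-output cells and from 0.0683% to 0.929% in low-output cells. These shares average each cell over both sets of chromosomes, of which the odd-numbered autosomes hold no mitochondrial reads. In cells chosen by total reads the mean shares of all reads were 0.273% in high-output and 0.339% in low-output cells. The tested share was lower in high-output cells in 7 of 10 batches, by 0.0716 points on average (SD 0.0749, adjusted p = 0.0344, exact sign-flip test). All of the 6 batches of barcode set 3 and Exp160 showed the lower share. High-output cells had 12086 mitochondrial reads and low-output cells 5810, of which 86.4% and 85.5% were RNA of the plus strand. The median over batches was 0.174% against 0.254%, and Exp208 and Exp160 lay above the other batches in both groups. The difference was -0.0542 points by the barcode alone (adjusted p = 0.0788, exact sign-flip test) and -0.0316 points after division by the barcode mean (adjusted p = 0.349, exact sign-flip test). It also failed the threshold when cells were ranked by total reads (adjusted p = 0.0516, exact sign-flip test) and with at least 2000 reads per cell (adjusted p = 0.233, exact sign-flip test), and when any 1 of the 7 batches that showed it was left out, Exp160, Exp236, Exp246, Exp260, Exp260b, Exp263 or Exp264a (-0.0763 to -0.0582 points, adjusted p = 0.0688 each, exact sign-flip test).

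The repeat on chromosome 17 at chr17:39843013-39848827 (mm10), a copy of part of the 45S pre-ribosomal RNA, took 390008 reads, although the authors had first removed reads that matched ribosomal DNA. As it lies on an odd autosome, cells were ranked on the other chromosomes alone and the share was taken of odd-autosome reads. It ranged from 1.46% to 14.8% in high-output cells, with a median of 4.62%, and from 2.89% to 19.7% in low-output cells, with a median of 5.08%. The difference of -1.09 ± 1.64 points (SD, n = 10) was lower in 8 of 10 batches and did not pass the adjusted threshold (p = 0.0430, adjusted p = 0.0788, exact sign-flip test). Exp264a carried the largest part, from 19.7% to 14.8%, and without it the mean difference was -0.661 points. Reads on annotated small RNA genes, most of them snoRNAs and other small nuclear and cytoplasmic RNAs, made up 3.24% of reads in high-output and 3.86% in low-output cells (lower in 8 of 10 batches, adjusted p = 0.0829, exact sign-flip test). In both measures all 6 batches of barcode set 3 were lower in high-output cells, and Exp211 was higher. By the barcode alone the repeat differed by -1.26 points (adjusted p = 0.0602, exact sign-flip test) and small RNA genes by -0.609 points (adjusted p = 0.0614, exact sign-flip test). After division by the barcode mean the repeat turned to 0.0816 points (adjusted p = 0.875, exact sign-flip test) and small RNA genes were at -0.320 points (adjusted p = 0.283, exact sign-flip test). Without Exp211 the differences by own reads were -1.29 points (adjusted p = 0.0269, exact sign-flip test) and -0.776 points (adjusted p = 0.0215, exact sign-flip test).

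**Figure D3:**
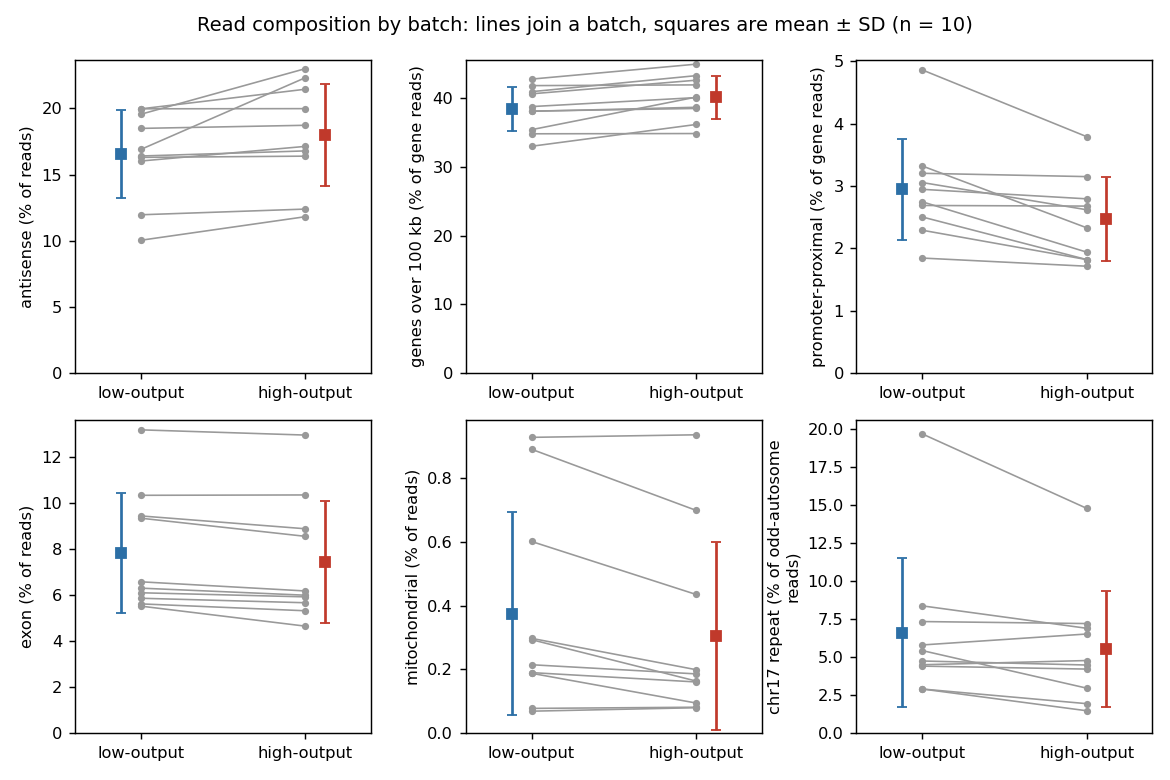
Shares of reads (vertical axes, percent, from 0) in low-output and high-output cells ranked on the other set of chromosomes. Grey lines join the 2 values of a batch and squares give the mean ± SD over 10 batches; antisense and long-gene shares rose and the promoter-proximal share fell in every batch, while the level differed more between batches than between groups.

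Genes detected were counted in the cells chosen by their total reads, since all chromosomes enter the count. After each cell was thinned to 1000 reads, 394 ± 73.2 genes were detected per high-output cell and 387 ± 70.8 per low-output cell (SD, n = 10 batches; 8 of 10 higher, adjusted p = 0.164, exact sign-flip test). Without Exp211 the difference was 9.99 genes and passed (adjusted p = 0.0172, exact sign-flip test). Without thinning the values were 1598 and 645, which follows from the reads that chose the cells. The barcode alone gave 20.6 more genes (adjusted p = 0.0286, exact sign-flip test) and division by the barcode mean gave 17.9 fewer (adjusted p = 0.0537, exact sign-flip test).

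Cells ranked by their barcode in other batches, with none of their own reads used, differed in reads in every library. The ratio of the median cells had a median of 1.97 and was above 1 in 42 of 42 libraries. Of these cells 64.1% at the high end and 65.4% at the low end were members of the groups by total reads. After division by the barcode mean, the ratio was 1.61 and above 1 in 39 of 42 libraries. None of the 11 measures passed the threshold in that ranking, which used the barcode mean of other batches, whereas 4 passed with the barcode alone. With the planned division by the barcode mean of other libraries, the intron share and detected genes passed, both lower in high-output cells. When reads whose last 4 mapped bases are CAGG were also left out, 8 passed with the barcode alone (adjusted p = 0.0322 each, exact sign-flip test), among them antisense at 1.12 points, long genes at 2.17, promoter-proximal at -0.621, intron at 1.14 and the chr17 repeat at -1.68, and none passed after division by the barcode mean.

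**Figure D4:**
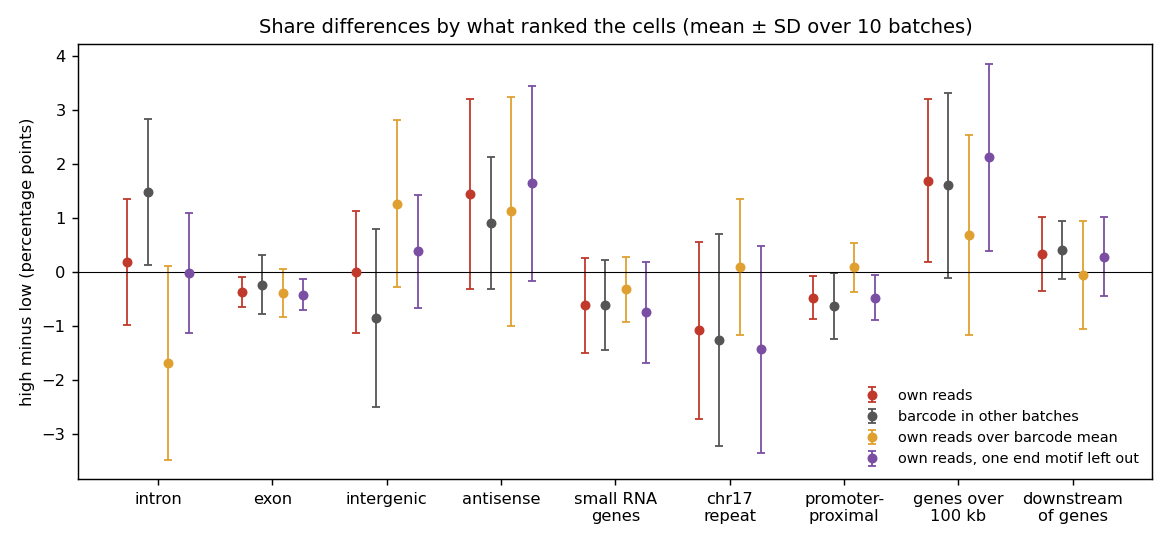
Difference between high-output and low-output cells (vertical axis, percentage points; mean ± SD over 10 batches) in 9 shares for 4 ways of ranking or counting. These are ranking by own reads, by the barcode in other batches, by own reads after division by the barcode mean, and by own reads without reads that end in one motif of 4 bases; the long-gene difference was 1.68, 1.60, 0.684 and 2.12 points in that order.

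Barcodes with at least 100 and under 1000 reads were pooled per batch and set beside low-output cells of the 42 kept libraries, ranked by total reads. The pools came from all 53 libraries, those that the filter left out included, so that the libraries compared differ as well. The mean promoter-proximal share of the pools was 3.34% against 2.99%, and it was beyond the low-output value in 6 of 10 batches. Their exon share was 8.64% against 7.85% (6 of 10) and their mitochondrial share 0.432% against 0.339% (5 of 10), and both rested on Exp160, without which they were 8.11% against 8.05% and 0.274% against 0.284%. The antisense share was 16.1% against 16.5% (lower in 5 of 10) and the long-gene share 38.3% against 38.1% (lower in 4 of 10). These pools held between 422 and 313465 reads, so that no order below the minimum is read from them. For comparison, the 2 AGTuC libraries were made from bulk nuclei by the same chemistry, with more detergent in the run-on. They had a promoter-proximal share of 19.95% and an antisense share of 10.6%. The 4 inAGTuC libraries, made from wells of intact nuclei with the low detergent, had 3.40% and 20.9%. The 7 further scGRO–seq batches outside the 10 gave 870 cells in 11 libraries under the same filters, and none of the 11 measures passed the test there. With 7 batches the smallest p is 0.0156, which the adjustment over 11 measures raises to 0.172 for a measure that alone reaches it (exact sign-flip test), so that these batches could hardly give a call. Their antisense difference was 0.579 points (5 of 7 batches higher, adjusted p = 0.936, exact sign-flip test) and their promoter-proximal difference 0.114 points, of opposite sign (adjusted p = 0.936, exact sign-flip test).

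The last bases to which reads mapped also differed between groups. In the 6 batches of barcode set 3, 11.7% ± 9.92 of the reads of high-output cells and 16.5% ± 9.02 of those of low-output cells ended in CAGG (SD, n = 6), against 0.526% of all 4-base words of the genome. The share was lower in high-output cells in 5 of the 6. It was 3.27% against 7.21% in Exp236, 5.12% against 12.8% in Exp246, 15.8% against 20.9% in Exp260, 13.7% against 23.6% in Exp263 and 3.75% against 6.45% in Exp264a, and only in Exp260b was it the other way, with 28.8% against 28.2%. In the 4 batches of the other barcode sets it was 0.621% and 0.671%. Bulk AGTuC libraries had 0.134% and 0.151%, and the inAGTuC libraries between 0.605% and 9.11%. Per the study's methods, a version of the azide adaptor carries the bases ACAGG next to the base that is clicked to the RNA, and which barcode set has that version is not given in the sources used here. Of CAGG ends, 76.8% in the libraries of set 3 had an A before them, against 28.2% in those of the other sets, 17.1% in AGTuC and 53.9% in inAGTuC libraries and 25.7% of CAGG words in the genome. A read that ends so may therefore not mark the place of a polymerase or an RNA end, and an RNA end and a stretch of the genome that matches the adaptor cannot be told apart here. Intergenic reads carried this end most often, at 14.2% in high-output and 20.8% in low-output cells of set 3, and small RNA genes at 3.03% and 3.98%. Other ends differed between groups as well, in both directions. In pooled reads ACAG made up 1.57% in high-output and 2.24% in low-output cells, and ATCG 0.287% and 0.0779%. These were kept when the differences of composition were measured again with only the ends in CAGG left out. The antisense difference was then 1.63 points and the long-gene difference 2.12 points, and antisense, long-gene, promoter-proximal, exon and mitochondrial shares all still passed the test (adjusted p between 0.0107 and 0.0301, exact sign-flip test). Mapping quality was 30.5 in high-output and 29.4 in low-output cells, higher in 8 of 10 batches, and reads that more than 1 library lists, left out here, were 20.1% and 16.2% of the deposited reads. At a mapping quality of at least 20 the same 5 shares passed, with an antisense difference of 1.55 points and a long-gene difference of 1.72 points (adjusted p between 0.00716 and 0.0344, exact sign-flip test). With the reads that several libraries list counted, the antisense, long-gene, promoter-proximal and mitochondrial differences passed (1.29, 1.16, -0.658 and -0.0839 points) and the exon difference did not.

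Single genes were compared with voom in limma on reads summed per batch and group, with the batch in the model and cells again ranked on the other set of chromosomes. Voom gives sums with more reads more weight, so that a log2 ratio can lie away from that of the medians over batches. Of 2289 genes tested, 83 (3.63%) passed an adjusted p of 0.05, 5 of them (0.218%) higher and 78 (3.41%) lower in high-output cells. Of the genes called lower, 57 held a snoRNA annotation, 21 were ribosomal protein genes and 11 were longer than 100 kb, and their median length was 6.29 kb. All 5 genes called higher were longer than 100 kb, as were 52.5% of all tested genes. The number depended on 1 batch. Without Exp236 12 genes were called, and without any other batch between 64 and 85. The median log2 ratio of the 83 genes was -0.71, and -0.35 without Exp236 over the 74 of them still tested. On simulated reads, with the same change in every batch, 36.1% of genes changed by 0.5 on the log2 scale and 96.1% of those changed by 1 were found. The median log2 ratio of all genes was -0.02, and 0.10 when sums were scaled to total reads rather than by trimmed mean of M values, which turned the split to 54 higher and 73 lower.

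Cytosolic ribosomal protein genes, which encode the proteins of the ribosome, were the largest group. Of 22 tested genes 21 were lower, against 3.41% of all tested genes. The median log2 ratio was -0.78, against -0.02 for all genes. All 22 have a snoRNA annotated within them, and the other 64 of the 86 listed did not have the reads for a test. Rpl4, of the large subunit, had between 93.5 and 3050 CPM, which are reads scaled to the total of each sum, by batch in high-output cells, with a median of 620, and between 169 and 5579 in low-output cells, with a median of 1251. The ranges overlapped, and its log2 ratio was -0.79 ± 0.14 (SE; limma adjusted p = 0.00208). Rps3a1, of the small subunit, had a log2 ratio of -1.03, Rpl39 -0.99, Rpl17 -0.70 and Rpl13a -0.64. Without Exp236 the group had 1 of 18 tested genes lower and a median of -0.30, and without any other batch at least 17 lower. In that fit Rpl4 kept its call at -0.54 (limma adjusted p = 0.0133), Rpl17 was at -0.27 (limma adjusted p = 0.597) and Rpl13a at -0.23 (limma adjusted p = 0.529), and Rps3a1 and Rpl39 did not have the reads for the test. Rpl17 also lost its call without Exp208, Exp246, Exp263 or Exp264a.

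The listed snoRNA host genes, most of them non-coding, gave 10 of 13 tested genes lower, against 3.41% of all tested genes. Their median was -0.71. Gas5, a non-coding host of box C/D snoRNAs, had between 765 and 14414 CPM in high-output cells, with a median of 2402, and between 733 and 14769 in low-output cells, with a median of 4812. It was lower in 7 of 10 batches, with a log2 ratio of -0.64 ± 0.15 (SE; limma adjusted p = 0.0182). Snhg1 and Snhg12, host transcripts of the same kind, had log2 ratios of -0.82 and -0.70. Rabggtb, which encodes a subunit of a Rab geranylgeranyl transferase and had the most reads of all genes, was lower in 9 of 10 batches with a log2 ratio of -0.75, and 2410006H16Rik had -0.77. Without Exp236 2 of 12 tested host genes were lower and the median was -0.38. Of the genes named here, Snhg1, Rabggtb and 2410006H16Rik kept their calls in that fit, and Gas5 at -0.44 (limma adjusted p = 0.114) and Snhg12 at -0.46 (limma adjusted p = 0.0879) did not. Gas5 also lost its call without Exp246.

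Of other groups of the translation machinery, 5 of 12 tested genes of nucleolar ribosome biogenesis were lower (median -0.37), among them Nop56 at -0.66, a core protein of box C/D particles, Gnl3 at -0.72 and Ncl at -0.57, which encodes nucleolin. Translation factors had 3 of 11 lower (median -0.18), with Eif4a1 at -0.81 and Eif5 at -0.55. For these groups and the next, the share called lower over all tested genes was 3.41%. Among heat shock and chaperone genes, 2 of 6 were lower, Hspa8 at -0.93 and Hspa9 at -0.66, and each holds snoRNA annotations, whereas Hspa4 without one had 0.08 (limma adjusted p = 0.811). Without Exp236 the 3 groups had 0 of 9, 1 of 9 and 1 of 5 tested genes lower, and only Eif4a1 at -0.48 and Hspa8 at -0.57 kept their calls. There Nop56 was at -0.33, Gnl3 at -0.42, Ncl at -0.25, Eif5 at -0.29 and Hspa9 at -0.55 (limma adjusted p between 0.101 and 0.518).

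The reads of the called genes lay in few places. A snoRNA annotation lies within 57 of the 78 genes called lower (73.1%) and within 4.62% of the tested genes that were not called. In these 78 genes a median of 85.0% of reads lay within 100 bp of a small RNA gene on the same strand. In 50 of them over 50% of reads lay in a single stretch of 50 bp, against 24 of 2206 tested genes not called. In 10 host genes examined (Rabggtb, Gas5, 2410006H16Rik, Snhg1, Snhg12, Rps3a1, Cks2, Rpl39, Rab26os and Kansl2) the most-read RNA end was between 2 and 7 bases past the annotated end of a small RNA gene. Reads on a small RNA gene itself were a class of their own and entered no gene count.

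The 30 bases up to the most-read end are printed for 5 hosts of snoRNAs and for 3 genes without a snoRNA, to show 2 of the kinds of place where reads of called genes piled up. They are 5′ to 3′ from the RefSeq copy of the mm10 genome, in DNA letters, with the last mapped base in capitals.
Rabggtb, chr3:153911603-153911632, minus strand, 7 bases past Gm24494: ctctagaattacgctgagaccttgaaaagG
Gas5, chr1:161036114-161036143, plus strand, 4 bases past Gm22357: aaaccaccatgattataactgaggcacacA
2410006H16Rik, chr11:62603126-62603155, plus strand, 5 bases past Snord49b: tgacgacatccctagttagctgactgcagT
Snhg12, chr4:132309576-132309605, plus strand, 5 bases past Snora16a: tgcaacattgtggaaaatgacagcttcacC
Rpl39, chrX:37082908-37082937, minus strand, 4 bases past Snora69: atcgtgacaccttgacatgaacagttcagA
Lrp8, chr4:107830958-107830987, plus strand, in an exon: atgtatcactcctgcggcgtggagtacagG
Aplf, chr6:87641889-87641918, minus strand, in an intron: gagtgtccctatggagcgtcttgttacagG
Rin3, chr12:102301650-102301679, plus strand, in an intron: cagatggttctggggtgtataagaaacagG
The end shown took 20.5% of the reads of Rabggtb, 17.97% of those of Gas5, 32.6% of those of 2410006H16Rik, 27.99% of those of Snhg12 and 67.03% of those of Rpl39. The last 3 sequences end in ACAGG, the bases that the methods give for a version of the adaptor, so that their ends cannot be told apart from a match to it. That end took 59.7% of the reads of Lrp8, 84.7% of those of Aplf and 63.96% of those of Rin3. Sltm, also called lower, was of neither kind. An intron end took 73.6% of its reads, with no small RNA gene end within 100 bases, and its last bases were AGAGG.

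Both kinds were among the genes with the lowest ratios, and ratios of genes whose reads end mostly in CAGG are subject to the same doubt. Lrp8, which encodes a lipoprotein receptor, had between 59.6 and 238 CPM in high-output cells, with a median of 88.4, and between 63.3 and 799 in low-output cells, with a median of 122. Its log2 ratio of -1.48 ± 0.17 (SE; limma adjusted p = 3.21e-05) was the most negative of the called genes. The fit weights batches with more reads, and unweighted means over batches lay closer. Without reads near small RNA genes the fitted ratio was -1.40, and the mean log2 CPM was 7.56 in high-output and 8.25 in low-output cells. Of all the reads of Lrp8, 63.1% ended in CAGG. Aplf, which encodes a DNA repair factor, followed with -1.18, and 85.2% of its reads ended so. Cks2, a cyclin-dependent kinase subunit, was at -0.99, Rab26os at -0.97, Kansl2, of a histone acetyltransferase complex, at -0.96 and Gm39429 at -0.95. Of these 4, all but Gm39429 hold snoRNA annotations, with between 87.0% and 98.8% of reads within 100 bp of one. Those 3 lost their calls without Exp236, with Cks2 at -0.55 (limma adjusted p = 0.254), Rab26os at -0.49 (limma adjusted p = 0.133) and Kansl2 at -0.43 (limma adjusted p = 0.308). Aplf at -0.98 and Gm39429 at -0.88 kept theirs, and Lrp8 did not have the reads for the test there.

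Without the reads within 100 bp of small RNA genes, 15 of 2281 genes (0.658%) were called, all lower, with Lrp8, Aplf, Rin3 and Gm39429 at the head. Of the 83 genes called with all reads, 40 were still tested and 39 kept their sign, with a median log2 ratio of -0.40 over the 40. Of the tested genes that hold a snoRNA annotation, 102 of 159 still had the reads for the test, with a median log2 ratio of -0.04, and 1 of them, Dancr, a non-coding transcript, was called at -0.75. The ribosomal protein genes then had no gene left with the reads for a test, 3 of the listed snoRNA host genes were tested and none of them was called, and Ncl had a log2 ratio of 0.11 (limma adjusted p = 0.802). Leaving out the reads that end in CAGG instead gave 86 of 2197 genes (3.91%), 8 of them higher. Leaving out both kinds gave 6 of 2193 (0.274%), all lower, which were Gm39429, Adam12, Sltm, Dancr, Lars2 and Cdk8. Without reads near small RNA genes and the most-read 50 bp of each gene, 3 of 2295 (0.131%) were called, Wdr92, Lars2 and Cdk8. The genes named for these counts were taken after their values were seen. Of the 78 genes called lower with all reads, 67 had over 50% of them within 100 bp of a small RNA gene or in 1 stretch of 50 bp. The same held for 32 of 2206 genes tested and not called, and the cause of such reads was not tested. Ranking by the barcode alone called 87 of 2109 genes (4.13%), all lower, of which 63 were among the 83. After division by the barcode mean none of the 83 was called, and the 2 genes that were, Prkg1 and Opcml, were higher. Of the 83, 76 were tested there and 74 kept their sign, with a median log2 ratio of -0.32 over the 76.

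The 5 genes called higher had lengths from 290954 to 1088234 bases. Pard3b, which encodes a protein of cell polarity, had between 95.2 and 347 CPM in high-output cells, with a median of 235, and between 42.7 and 222 in low-output cells, with a median of 143. Its log2 ratio of 0.59 ± 0.14 (SE; limma adjusted p = 0.0158) was higher in 9 of 10 batches. Kctd16, an auxiliary subunit of GABA-B receptors, was at 0.55, Ebf1, a transcription factor of B cells, at 0.44, Asic2, an ion channel subunit, at 0.43 and Fam172a at 0.40, and 47.4% of the reads of Fam172a ended in CAGG. Adjusted p-values of the 5 lay between 0.0149 and 0.0457, and each lost its call without Exp236, where the adjusted p-values lay between 0.101 and 0.597. Asic2 lost it when any batch was left out, Kctd16 in 7 of 10 such fits (without Exp156, Exp160, Exp208, Exp236, Exp260, Exp260b or Exp263), Ebf1 in 5 (without Exp156, Exp211, Exp236, Exp246 or Exp260) and Fam172a in 2 (without Exp211 or Exp236). None was called without reads near small RNA genes, when their log2 ratios were between 0.40 and 0.59.

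The log2 ratio ran with gene length. The median log2 ratio was -0.70 for 66 genes under 10 kb, -0.19 for 151 genes of 10 to 30 kb, -0.08 for 871 genes of 30 to 100 kb, 0.03 for 837 genes of 100 to 300 kb and 0.14 for 364 genes over 300 kb. Without reads near small RNA genes the medians were -0.43 for the shortest class and 0.13 for the longest, over the genes that still had the reads for the test. The genes are not the same, since 102 of the 159 tested genes with a snoRNA annotation were still tested. In genes with no snoRNA annotation the medians were -0.40 for 14 genes under 10 kb and 0.14 for 341 genes over 300 kb, so that the order was the same. After division by the barcode mean the medians ran from -0.36 for the shortest to 0.19 for the longest class, and without Exp236 from -0.33 to 0.06, each over the genes tested there. These medians describe genes, which are not replicates, and carry no test.

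**Figure D5:**
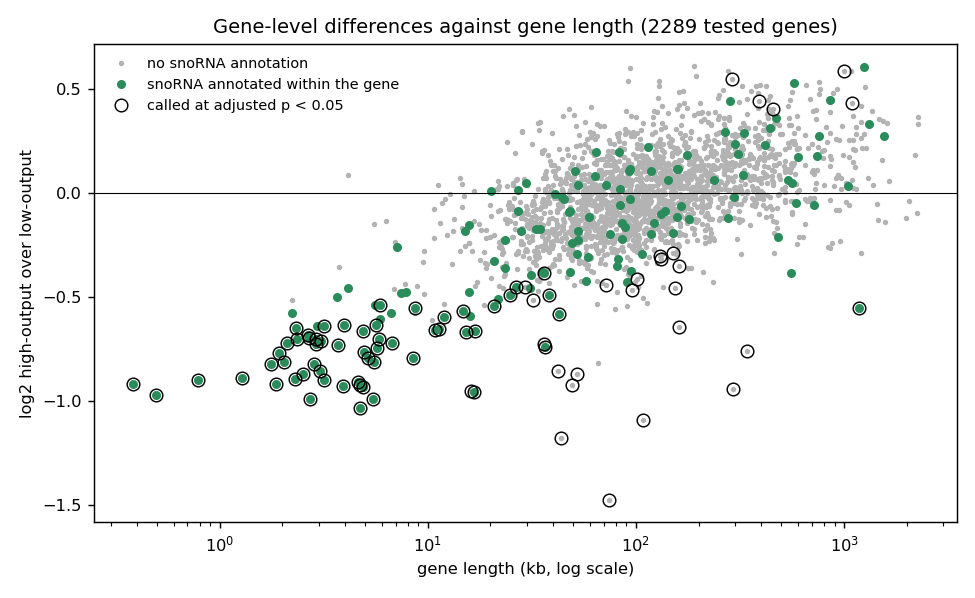
Log2 ratio of high-output over low-output cells (vertical axis) against gene length (horizontal axis, kb, log scale) for the 2289 tested genes. Green points hold a snoRNA annotation and circles mark genes called at an adjusted p of 0.05; most of the 78 circles below 0 are short green genes, and the 5 above 0 are all longer than 100 kb, as are 52.5% of the tested genes.

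The genes of the cell type were few in reads. Esrrb, a nuclear receptor of naive pluripotency, had between 290 and 1000 CPM in high-output cells and between 333 and 1068 in low-output cells, and its log2 ratio was -0.35 ± 0.09 (SE; limma adjusted p = 0.0243, lower in 9 of 10 batches). It lost its call without Exp211, Exp236, Exp246 or Exp264a (-0.33 to -0.31). Scaled to total reads its log2 ratio was -0.26 (limma adjusted p = 0.103). Zfp42 had -0.53 (limma adjusted p = 0.0773) and Tfcp2l1 0.02 (limma adjusted p = 0.963). Pou5f1, Nanog and Klf4 had 214, 191 and 101 reads over all cells, too few for the test, and Sox2 had none, because it lies inside Sox2ot on the same strand and reads in more than 1 gene were given to neither. Of 20 listed pluripotency genes 3 were tested and 1 was called, against 3.63% of all tested genes.

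Markers of other cell types were low in both groups, as were those of the cell type itself. Shares here are of gene reads. The 20 listed pluripotency genes took a median of 0.141% in high-output and 0.165% in low-output cells. The 12 primitive endoderm markers took 0.0663% and 0.0695%, and none of the 3 tested was called (median log2 ratio 0.07). Low levels alone thus do not set these markers apart from genes of the cell type. Trophoblast and fibroblast markers had no tested gene, with medians between 0.0114% and 0.0196% of reads, and of 14 two-cell-like markers 12 were found in the annotation and 6 of these had no read in either group. Fibroblast markers ranged from 0.00616% to 0.0285% in high-output and from 0% to 0.0564% in low-output cells.

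Genes of the cell cycle did not pass the test either. Of G1/S genes 3 were tested, with a median log2 ratio of -0.12, and of G2/M genes 7 were tested, with a median of 0.06 and Top2a, a topoisomerase of dividing cells, at -0.39 (limma adjusted p = 0.150). No replication-dependent histone gene had the reads for a test. As a share of gene reads, with no test, these genes had a median of 0.0297% in high-output and 0.0407% in low-output cells. The sum was lower in high-output cells in 8 of 10 batches. G1/S genes had 0.0921% and 0.102% (lower in 8 of 10), and G2/M genes 0.188% and 0.195% (lower in 5 of 10). None of the 12 tested genes of polymerase II elongation and pausing was called (median -0.05), with Supt5 at -0.13 and Aff4 at -0.34. None was called of 6 tested glycolysis genes (median -0.11), 4 cholesterol synthesis genes (median -0.15), 3 proteasome genes or 2 respiratory chain genes. Of 10 tested nuclear non-coding RNAs 1 was called, against 3.63% of all tested genes, and Malat1 was at -0.24 (limma adjusted p = 0.150). Changes of 0.5 on the log2 scale could be missed at this depth.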

How the data were processed

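The authors deposited 1 list of mapped reads per library, made with Cutadapt, Flexbar, bowtie2 against ribosomal DNA and then mm10, and UMI-tools, whose deposited score, from 3 to 44, gives how well a read mapped and served only as a filter in 1 alternative. Reads were counted here as entries. Molecules with the same position, strand, barcode and UMI in more than 1 library (28.9% of reads in the rule's libraries) were left out, as was 1 scGRO–seq list that repeats an inAGTuC list. Libraries held between 28199 and 1122870 reads in kept cells. Reads were given to mitochondria, the chromosome 17 repeat, small RNA genes, exons, introns, antisense and intergenic space, in this order, on RefSeq GRCm38.p6, with GENCODE M21 for the repeat and small RNA genes. No doublet caller was run.

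Batches, as the labels name them, were replicates. Nothing says that they were separate cultures, so p-values measure the spread between batches. Batches of a barcode set also share its barcodes, as do the 6 batches of set 3 with its 96 barcodes. High-output and low-output cells of different batches are thus in part the same barcodes, for which the tests made no allowance. This holds most for the ranking by the barcode alone. Shares were tested by exact sign-flip tests. For genes, limma 3.58.1 in R 4.3.3 (voom, trimmed mean of M values, batch as block) replaced the count tool of the plan. Both steps were checked on simulated data, where 3 of 2031 genes gave false calls. Named genes were the up to 8 with the largest change in each direction among those called that had the same sign in at least 8 of 10 batches, markers of the cell type, the 5 most read, and up to 3 per gene list. The members and lists were chosen with earlier results of these data known. Alternatives covered the reads counted, the cell filter, the ranking, group width, averaging, replicates and the gene model. Python 3.11.15 with numpy 2.4.6 and pandas 2.3.3 was used, and matplotlib 3.10.9 for figures.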

Additional observations from a re-analysis of the deposited data

Results flagged for a closer look

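Of 33 groups of 10 batches examined, 5 had a batch far from the others by Dixon's criterion (a gap above 0.466 of the range), where chance gives about 1 in 20. The share of reads on small RNA genes was highest in Exp156, with 9.10% in high-output and 10.2% in low-output cells, against medians over batches of 2.60% and 2.84%. The chr17 repeat was highest in Exp264a, with 14.8% of odd-autosome reads in high-output and 19.7% in low-output cells, against medians of 4.62% and 5.08%. The promoter-proximal share of low-output cells was also highest in Exp264a, with 4.86% against a median of 2.85%. For small RNA genes and the chr17 repeat both groups of cells stood apart, and for the promoter-proximal share only low-output cells did.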

How the results depend on the processing

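Differences are high-output minus low-output in percentage points, or in genes detected, and "passed" means an adjusted p below 0.05. Antisense, long-gene, promoter-proximal and exon differences passed without any 1 batch, and the antisense difference passed in every other setting except the rankings that use the barcode, of which it passed in 1, and the batches outside the 10. The cause of the changes below was not tested.

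Ranked by total reads on the same reads, the intergenic difference was -0.0569 and the mitochondrial one -0.0659, which did not pass. With same-UMI reads within 50 bp counted once these were -0.0406 and -0.0683, and the mitochondrial one did not pass. With all deposited reads exon was 0.651, intergenic -1.70 and downstream 0.770, which passed. At a mapping quality of at least 20, small RNA was -0.668 and passed. Without the 100 most-read stretches of 50 bp, intron was -0.332 and detected genes -2.81, and small RNA at -0.510 and the chr17 repeat at -0.620 passed. With reads pooled per batch intron was -0.121 and mitochondrial -0.0409, which did not pass. With medians over cells mitochondrial was -0.00504 and did not pass. That median could hardly show a difference, since each cell also entered with its odd-autosome reads, none of which can be mitochondrial. With the top and bottom 33.3% of cells intergenic was -0.0364. With the top and bottom 10% intron was -0.324 and mitochondrial -0.0875, which did not pass. Without thinning, detected genes were 953 and passed, since the reads that chose the cells then set it.

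With at least 2000 reads per cell (2465 cells), intron was -0.348, and exon at -0.150, mitochondrial at -0.0537, promoter-proximal at -0.236 and long-gene at 1.43 did not pass. With at least 1000 reads and 750 genes per cell (2392 cells), intron was -0.986, downstream -0.00198 and detected genes -7.61, small RNA at -0.751 and the chr17 repeat at -1.24 passed, and mitochondrial at -0.0598 and promoter-proximal at -0.239 did not. With libraries as replicates intron was -0.191, and small RNA at -0.781, the chr17 repeat at -1.32 and detected genes at 6.59 passed. With small RNA genes not taken out first, intron was -0.262 and intergenic -0.162. In the 7 batches outside the 10, intron was -0.0708, exon 0.0739, mitochondrial 0.0104, promoter-proximal 0.114, downstream -0.0620, antisense 0.579 and long-gene 0.227, and none passed, which no measure could have done alone.

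After division by the barcode mean of other libraries, intron was -1.35 and detected genes -14.8, which both passed, the chr17 repeat 0.0461, promoter-proximal 0.0295 and downstream -0.0715, and exon at -0.324, antisense at 0.996, mitochondrial at -0.0280 and long-gene at 0.582 did not pass. The alternatives from here on were chosen after the data were seen. With the barcode mean of other batches these were -1.68, -17.9, 0.0816, 0.0812, -0.0526, -0.387, 1.12, -0.0316 and 0.684, and none passed. By the barcode alone, intron at 1.47 and detected genes at 20.6 passed, exon at -0.237, antisense at 0.911 and mitochondrial at -0.0542 did not, and intergenic was -0.853. In the 6 batches of barcode set 3 intergenic was -0.0385, and small RNA at -0.988 and the chr17 repeat at -1.91 passed. Without reads within 100 bp of small RNA genes intergenic was -0.293 and downstream 0.459, which passed, and without the most-read 50 bp of each gene as well they were -0.606 and 0.495, which passed. Without ends in CAGG intron was -0.0241. Without these ends and ranked by the barcode alone, intron at 1.14, small RNA at -0.781, the chr17 repeat at -1.68 and detected genes at 19.4 passed, exon at -0.284 did not, intergenic was -0.277, and antisense passed at 1.12. Without these ends and after division by the barcode mean of other batches, intron was -1.60, exon -0.389, antisense 1.10, mitochondrial -0.0357, the chr17 repeat 0.133, promoter-proximal 0.0547, long-gene 0.634, downstream -0.0656 and detected genes -16.6, and none passed.

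Genes called, 83 by the plan, were 127 with scaling to total reads, 150 with all deposited reads, 8 of 233 tested with cells thinned to 1000 reads, 7361 of 21961 with a minimum of 1 read, 6974 of them lower, 15, 3 and 6 without reads near small RNA genes, without these and the most-read 50 bp, and without these and ends in CAGG, and 2 after division by the barcode mean of other batches. After division by the barcode mean of other libraries 0 were called in limma, with 153 at an unadjusted p below 0.05, and without the batch in the model 0, with 70. In the first of these fits 73 of the 75 main calls still tested kept their sign, with a median log2 ratio of -0.26. Without the batch all 83 did, with a median of -0.71. A quasi-Poisson count model, added later, called 121 of the 2289 genes, 31 higher and 90 lower, and 82 of the 121 were among the 83. With a minimum of 1 read it called 273, 256 of them higher. Calls of rarely read genes thus turned with the model, and the split among the 2289 genes also moved with it. A second count tool with its own size factors (DESeq2) was planned and not run. Ncl turned to 0.11 without reads near small RNA genes, 0.11 without the most-read 50 bp as well and 0.13 without these reads and ends in CAGG.

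Leaving out 1 batch at a time moved genes called between 12 and 85, the intron difference between -0.0116 and 0.386, the intergenic between -0.248 and 0.215, the mitochondrial between -0.0807 and -0.0582, the chr17 repeat between -1.29 and -0.661, small RNA between -0.776 and -0.473 and detected genes between 5.07 and 9.99. Without Exp211 the last 3 passed. The batch is the block of the gene fit and the pair of the sign-flip test. Cells of 1000 reads hold few reads per gene, so that 2289 of 24331 annotated genes could be tested.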
